A study of Homo sapiens with 33 samples.

Results

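Transforming growth factor beta (TGF-beta) signalling was followed through 10 genes in mesothelioma cell lines treated with palbociclib, an inhibitor of the cell cycle kinases CDK4 and CDK6. The genes are the ligands TGFB1, TGFB2, TGFB3 and INHBA, the receptors TGFBR1 and TGFBR2, the signal transducer SMAD3, the inhibitors SMAD7 and SKIL, and the target TGFBI. They were chosen by symbol, with earlier results of these data known. Each symbol was found in 1 of the 58302 rows of the expression matrix. All 10 reached the minimum level for testing in at least 1 library and were among the 17803 genes tested.

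The RNA-seq data comprise 33 libraries of 6 established cell lines. H2052, H2452, H28 and MSTO-211H are lines of malignant pleural mesothelioma (MPM) that are sensitive to palbociclib. The resistant lines are MPP89, from MPM and mutated in RB1, and MeT-5A, normal mesothelial cells that were immortalized with SV40. Controls received 0.1% DMSO and treated cells 1 µM palbociclib for 9 or 10 days, in 2 paired experiments for H2052 and MPP89, 3 for H2452, H28 and MSTO-211H and 1 for MeT-5A, which also has 1 untreated library. In 1 experiment of each sensitive line, cells treated for 10 days were also kept for 48 h without the drug (washout). Each line is 1 established culture, so the 11 pairs of sensitive lines come from 4 lines and the 3 pairs of resistant lines from 2. P-values measure the spread between these experiments, and for washout the spread between the 4 lines. In the fit over the 11 pairs that spread includes differences of response between lines.

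TGF-beta ligands are secreted in a latent form that is bound to the extracellular matrix and has to be released. The active dimer binds the type II receptor TGFBR2, which recruits and phosphorylates the type I receptor TGFBR1. TGFBR1 then phosphorylates SMAD2 and SMAD3, which enter the nucleus with SMAD4 and switch on genes that include their own inhibitors. INHBA encodes the subunit of activin A, a related ligand that acts through other receptors of the family and the same SMAD2 and SMAD3. In mesothelial cells the pathway is known for the change to a fibroblast-like state and for matrix production, and in epithelial cells for arrest of the cell cycle.

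The promoters of TGFB2, INHBA, TGFBR2 and TGFBI are shown because these 4 genes had the largest fold changes of the 10 over the sensitive lines. Each run holds the 250 bases before a transcription start in RefSeq (GRCh38.p14), 5′ to 3′ on the strand of the gene. TGFBR2 has 2 such windows, and the one next to the annotated start of the gene is shown. The windows of TGFB2 and TGFBI also end at the annotated start. That of INHBA lies within the gene as annotated (41667168 to 41705834), before a start further inside it. Capitals mark matches on either strand to CAGAC (the SMAD box), TATAAA (the TATA box) or CCAAT (the CCAAT box, ATTGG on the other strand).

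TGFB2 (chr1:218345086-218345335, plus strand): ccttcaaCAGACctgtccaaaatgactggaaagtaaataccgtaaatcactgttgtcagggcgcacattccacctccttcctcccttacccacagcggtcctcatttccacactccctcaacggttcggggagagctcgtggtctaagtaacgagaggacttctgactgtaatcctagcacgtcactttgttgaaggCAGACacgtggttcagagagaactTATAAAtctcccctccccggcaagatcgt

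INHBA (chr7:41703091-41703340, minus strand): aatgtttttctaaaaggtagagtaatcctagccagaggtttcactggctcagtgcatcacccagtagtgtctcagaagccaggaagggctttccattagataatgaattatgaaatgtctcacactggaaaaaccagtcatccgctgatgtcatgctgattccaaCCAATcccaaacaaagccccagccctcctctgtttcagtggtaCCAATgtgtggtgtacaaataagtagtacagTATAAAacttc

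TGFBR2 (chr3:30606351-30606600, plus strand): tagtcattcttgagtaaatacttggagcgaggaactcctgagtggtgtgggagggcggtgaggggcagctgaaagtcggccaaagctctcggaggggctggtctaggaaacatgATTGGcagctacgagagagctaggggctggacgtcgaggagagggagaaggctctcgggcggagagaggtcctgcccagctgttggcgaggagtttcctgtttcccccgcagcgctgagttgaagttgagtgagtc

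TGFBI (chr5:136028738-136028987, plus strand): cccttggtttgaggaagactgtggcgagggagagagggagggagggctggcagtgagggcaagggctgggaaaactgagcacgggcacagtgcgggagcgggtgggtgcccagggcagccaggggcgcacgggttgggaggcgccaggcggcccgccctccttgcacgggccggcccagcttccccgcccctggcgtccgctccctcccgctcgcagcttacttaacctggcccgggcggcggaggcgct

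TGFB2 held 2 SMAD boxes and a TATA box, INHBA a TATA box and 2 CCAAT boxes, and TGFBR2 1 CCAAT box. The TGFBR2 window not shown (chr3:30606106-30606355) also held 1 CCAAT box. The TGFBI window, with 72.8% G and C, held none of these letters. Over 35116 windows of the same length, CAGAC was found in 38%, CCAAT in 32.01% and TATAAA in 10.72%. The other motifs searched on both strands, GTCTAGAC (SMAD palindrome), TGANTCA (AP-1), TGACGTCA (cyclic AMP element) and TTTCCCGC (E2F), were in none of the 4 windows. A match describes letters and not a bound site.

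Values are counts per 20000000 reads (CP20M), a library-scaled score. In 23 libraries the values skip whole numbers, which gave depths under 20000000 reads, the lowest at 12770000, where 1 read is worth 1.57 CP20M. The other 10 libraries skip none. The epithelial and mesothelial keratins KRT8 and KRT18 were at 1497 CP20M or more in all libraries. Other mesothelial markers varied by line. In H28, MSLN, CALB2, PDPN and KRT5 were at 0 to 15 CP20M and KRT7 at 35 to 76. WT1 was at 107 to 360, UPK3B at 61 to 233 and KRT19 at 4295 to 11798 in that line. PDPN was also at 0 to 3 in MSTO-211H. In MeT-5A, WT1 was at 0 to 2 and KRT19 at 0 to 3, with CALB2 at 397 to 534 and PDPN at 200 to 325. The T cell marker CD3E was 0 in all libraries and the leukocyte marker PTPRC was at 0 to 42. The sum of 5 leukocyte markers reached its highest values in H2452, at 137 to 365 CP20M in DMSO and 285 to 1132 with palbociclib. In DMSO this range overlapped MPP89, at 139 and 168. The H2452 sum came mostly from CD14, which was at 133 to 1130 in that line and 0 to 121 in the others. MKI67, a marker of cycling cells, had a median of 7680 CP20M in DMSO (1555 to 11301) and of 806 with palbociclib (171 to 2496) in the sensitive lines. The mitochondrial share of reads in these lines was 0.374 to 1.16% in DMSO and 0.403 to 2.37% with palbociclib. After washout it was 0.594 to 3.80%, with the highest value in H28. The part of MKI67 or of the mitochondrial share in the results was not tested.

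In DMSO the 10 genes were at very different levels from line to line. All 10 differed among the 5 lines with replicates (limma F test, highest adjusted p 0.0294 for TGFB3, lowest 1.74e-09 for TGFB2), as did 94.3% of all genes tested. The TGFB3 result passes 0.05 no longer with upper-quartile scaling (adjusted p = 0.0803), without a filter (0.0624), without replicate 2 of MPP89 (0.265) or H2052 (0.0516) or without replicate 1 (0.0569) or 3 (0.0546) of H28. TGFB3 entered the test only through libraries of the resistant lines, where it is highest, so its result is not independent of the filter. In bulk RNA, fewer cells that express a gene and less RNA per cell cannot be told apart.

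TGFB1 (ENSG00000105329, chromosome 19 from 41301587 to 41353922, minus strand) was at 1363 CP20M or more in the DMSO libraries of every line. Per kb of exon (GENCODE 44, GRCh38) its mean DMSO level was the highest of the 10 genes in H28 (1553 CP20M per kb), MSTO-211H (965), MPP89 (949) and MeT-5A (2039). In CP20M, the DMSO libraries were at 1960, 1903 and 1363 in H2452, 2799 and 2691 in H2052, 3209, 3333 and 2909 in MSTO-211H, 2786 and 3410 in MPP89, 5552, 4043 and 5609 in H28 and 6656 in MeT-5A. H2452 lay below all other lines and H28 above the other sensitive lines.

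TGFB2 (ENSG00000092969, chromosome 1 from 218345336 to 218444619, plus strand) had the widest range. It was at 5975 and 3768 CP20M in MPP89, 5708 in MeT-5A, 1270 and 1527 in H2052 and 367, 531 and 687 in H2452. In MSTO-211H it was at 10, 6 and 23 and in H28 at 1, 2 and 11, near the 4.7 CP20M that 3 reads make at the lowest depth. The 3 resistant libraries thus stood above every sensitive library, and H28 and MSTO-211H, which overlap, had few reads of this ligand. Of the 6050 exonic bases of TGFB2, 1371 are shared with TGFB2-OT1 on the same strand, and reads there cannot be told apart.

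TGFB3 (ENSG00000119699, chromosome 14 from 75958097 to 75983011, minus strand) was low everywhere. It ranged from 20 to 60 CP20M over the 11 sensitive DMSO libraries, and was at 62 and 107 in MPP89 and 94 in MeT-5A. INHBA (ENSG00000122641, chromosome 7 from 41667168 to 41705834, minus strand) was at 2947 CP20M in MeT-5A, 1682 and 1038 in MPP89, 1812, 952 and 1142 in MSTO-211H and 425 and 513 in H2052. It was at 69, 121 and 36 in H2452 and 47, 15 and 38 in H28. H2452 and H28 overlap at the low end, and MPP89 and MSTO-211H overlap above H2052.

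Among the receptors, TGFBR1 (ENSG00000106799, chromosome 9 from 99104038 to 99154192, plus strand) was highest in MPP89 (6866 and 5697 CP20M), followed by H2052 (2655 and 3430) and MeT-5A (2891), which overlap. It was at 1905, 1643 and 1495 in H28, 908, 936 and 1005 in MSTO-211H and 475, 336 and 430 in H2452. TGFBR2 (ENSG00000163513, chromosome 3 from 30606601 to 30694142, plus strand) had another order. It was at 4932, 6040 and 3761 CP20M in H2452, 1981 and 1742 in H2052, 1765, 1537 and 2112 in H28, 982, 1026 and 1377 in MSTO-211H, 627 and 887 in MPP89 and 332 in MeT-5A. H2052 and H28 overlap, and both resistant lines lay below every sensitive library. H2452 thus had the most mRNA of the type II receptor and the least of the type I receptor.

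SMAD3 (ENSG00000166949, chromosome 15 from 67063763 to 67195173, plus strand) was at 12439, 12007 and 15219 CP20M in H28, 7225 and 9149 in H2052, 8766, 10149 and 6484 in MSTO-211H, 5241, 4776 and 4720 in H2452, 5326 in MeT-5A and 3525 and 3600 in MPP89. H28 was above and MPP89 below all other libraries. SMAD7 (ENSG00000101665, chromosome 18 from 48919853 to 48950965, minus strand), which blocks the type I receptor, was also highest in H28 (1157, 1145 and 983). It was at 747 in MeT-5A, 512 and 507 in MPP89, 399, 371 and 270 in H2452, 152 and 87 in H2052 and 100, 84 and 65 in MSTO-211H, where the last lines overlap.

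SKIL (ENSG00000136603, chromosome 3 from 170357342 to 170396835, plus strand), a nuclear repressor of SMAD-driven transcription, was at 2340 and 3106 CP20M in MPP89 and 3349 in MeT-5A. It ranged from 543 to 1927 in the sensitive lines, with the lowest value in MSTO-211H and the highest in H28. TGFBI (ENSG00000120708, chromosome 5 from 136028988 to 136063818, plus strand), a secreted matrix protein induced by TGF-beta, was at 14637, 24741 and 12787 in H2452, 7413 and 6264 in H2052, 7018 and 6136 in MPP89, 4487, 5967 and 5896 in H28 and 3930 in MeT-5A. In MSTO-211H its libraries were far apart, with 3119 in replicate 1 and 534 and 384 in the other two.

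The 3 resistant DMSO libraries stood above all 11 sensitive ones for 3 genes (TGFB2, TGFB3 and SKIL) and below them for 1 (TGFBR2). This was so for 7.52% and 2.86% of all genes tested. TGFB3 reached the minimum level for testing only in libraries of MPP89 and untreated MeT-5A, at 105 to 121 CP20M. Its place among the 3 genes is therefore not independent of the filter. With 2 resistant lines the levels are given as a description, with no test between the classes.

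**Figure D1:**
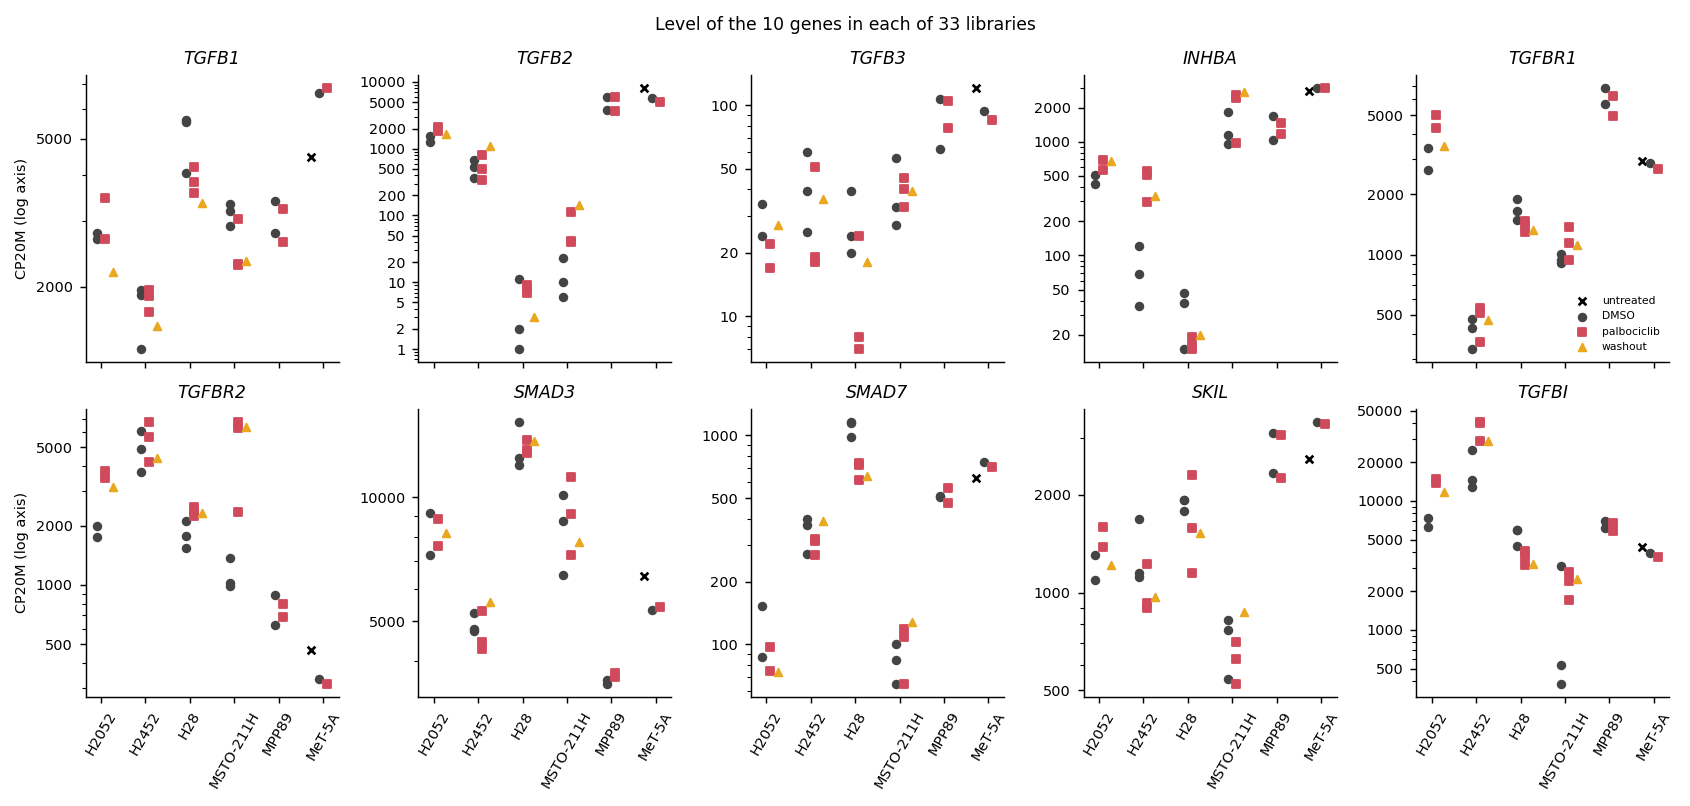
Level of each of the 10 genes in the 33 libraries, in CP20M on a log axis, by cell line, with 1 point per library coloured by treatment. TGFBR2 in MSTO-211H rises from 982 to 1377 in DMSO to 2359 to 6708 with palbociclib, while in MPP89 it is at 627 and 887 in DMSO and 689 and 798 with palbociclib.

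Over the 11 pairs of the sensitive lines, palbociclib raised the type II receptor TGFBR2 and the ligand TGFB2, and none of the 10 genes was called lower. A call needed a fold over 1.5 and an adjusted p under 0.05. These are 2 of 10 genes against 5.58% of all genes called higher, and 0 of 10 against 9.37% called lower. The median log2 fold change was 0.09 for the 10 genes and -0.11 for all genes tested. The split of all calls, 994 higher and 1669 lower, depends on the scaling. It was 1754 and 919 with median-of-ratios and 1661 and 979 with upper-quartile scaling, which moved the median of all genes up by 0.17 and 0.15.

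TGFBR2 rose in 11 of 11 pairs. With palbociclib it was at 6248, 2359 and 6708 CP20M in MSTO-211H, 3512 and 3807 in H2052, 2236, 2371 and 2496 in H28 and 5635, 6715 and 4206 in H2452. The treated libraries lay above all DMSO libraries of their line in H2052, H28 and MSTO-211H and overlapped them in H2452. The fold change was 0.89 ± 0.23 on the log2 scale (SE, n = 11 pairs, 95% interval 0.40 to 1.38, adjusted p = 0.00573), or 1.00 above the median of all genes. Without MSTO-211H it was 0.46 (adjusted p = 0.00836), which is under the fold of 1.5, and with the 4 line means as units the adjusted p was 0.0835.

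By line, TGFBR2 rose by 2.04 ± 0.32 in MSTO-211H (SE, n = 3 pairs, adjusted p = 0.0379) and by 0.97 ± 0.11 in H2052 (n = 2 pairs, adjusted p = 0.0387). The log2 fold changes of 0.40 ± 0.10 in H28 and 0.17 ± 0.05 in H2452 did not pass (adjusted p = 0.0591 and 0.0629). The line with the highest receptor level in DMSO, H2452, thus had the smallest fold change. In MSTO-211H the pairs were at 2.66, 1.19 and 2.28, and the second pair was the one with the lowest MKI67 in both arms (1555 CP20M in DMSO and 171 with palbociclib). The part of this in the result was not tested.

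TGFB2 rose over the sensitive lines by 0.64 ± 0.20 (SE, n = 11 pairs, 95% interval 0.21 to 1.06, adjusted p = 0.0171) and was higher in 8 of 11 pairs. With palbociclib it was at 40, 42 and 112 CP20M in MSTO-211H and at 1815 and 2114 in H2052, in both lines above every DMSO library. It was at 337, 495 and 819 in H2452 and at 9, 7 and 8 in H28, overlapping the DMSO range. In MSTO-211H it rose by 1.64 ± 0.16 (n = 3 pairs, adjusted p = 0.0349), still to a low level. In H2052 the log2 fold change of 0.49 ± 0.07 (n = 2 pairs, adjusted p = 0.042) was under the fold of 1.5.

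The TGFB2 call over the sensitive lines rests on MSTO-211H. Without this line the log2 fold change was 0.26 (adjusted p = 0.121), and without its replicate 1, 2 or 3 it was 0.57, 0.53 or 0.51, under the fold of 1.5 (adjusted p = 0.0371, 0.0371 and 0.0362). With a pseudocount of 50 it was 0.34 (adjusted p = 0.0237) and with line means as units 0.62 (adjusted p = 0.155).

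The other ligands did not pass. TGFB3 had a log2 fold change of -0.38 ± 0.12 (adjusted p = 0.0224) and was higher in 2 of 11 pairs, under the fold of 1.5. It fell in H28 by 0.75 ± 0.12 (SE, n = 3 pairs, adjusted p = 0.0324), from 24, 39 and 20 CP20M to 8, 24 and 7, values of few reads that overlap. This call was lost under 7 of 10 alternatives, with pseudocounts of 1 and 50, without a filter or the replicate block (adjusted p = 0.0842 and 0.177) and without each pair (0.0519 to 0.218). TGFB1 was at -0.13 ± 0.08 (adjusted p = 0.219), and its sign turned under both other scalings. Its values with palbociclib were 4202, 3571 and 3824 in H28, 3459 and 2695 in H2052, 2309, 3051 and 2295 in MSTO-211H and 1894, 1969 and 1717 in H2452, which overlap those in DMSO in each line.

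INHBA had a log2 fold change of 0.74 ± 0.35 (SE, n = 11 pairs, 95% interval -0.02 to 1.499, adjusted p = 0.1). It went apart by line. In H2452 it rose by 2.51 ± 0.36 (n = 3 pairs, adjusted p = 0.0207), to 296, 552 and 505 CP20M, above the 36 to 121 in DMSO. The leukocyte marker sum in this line was 137, 365 and 176 CP20M in DMSO and 353, 1132 and 285 with palbociclib, higher in 3 of 3 pairs with groups that overlap, and its part in the result was not tested. In H28 it was at 15, 19 and 16, at the low end of DMSO (-0.62 ± 0.31, adjusted p = 0.212). In H2052 it was at 563 and 691 (0.41 ± 0.10, adjusted p = 0.0664) and in MSTO-211H at 2552, 983 and 2421 (0.54 ± 0.22, adjusted p = 0.159). Over the sensitive lines INHBA was called with a pseudocount of 50 (0.68, adjusted p = 0.0476), without H28 (1.25, adjusted p = 0.0161) and without replicate 1 of H28 (0.93, adjusted p = 0.0397).

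TGFBR1 was at 0.16 ± 0.10 over the sensitive lines (adjusted p = 0.178). Among the single-line fits it was called in H2052, with a rise of 0.63 ± 0.09 (SE, n = 2 pairs, adjusted p = 0.0407), from 2655 and 3430 to 4328 and 5022 CP20M without overlap. This call was lost under 5 of 10 alternatives (adjusted p up to 0.0692). In H2452 and MSTO-211H TGFBR1 was higher in 3 of 3 pairs, with log2 fold changes of 0.18 ± 0.08 and 0.26 ± 0.11 that did not pass (adjusted p = 0.154 and 0.162). With palbociclib it was at 1470, 1303 and 1408 in H28, 942, 1139 and 1378 in MSTO-211H and 512, 366 and 538 in H2452. H28 was the line where TGFBR1 was lower in 3 of 3 pairs (-0.26 ± 0.08, adjusted p = 0.0949). H2052 was thus the line in which both receptors were called higher.

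SMAD3 was at 0.02 ± 0.07 (SE, n = 11 pairs, 95% interval -0.13 to 0.17, adjusted p = 0.86), and this interval leaves out a fold of 1.5 in either direction. That holds for the average over the pairs. In MSTO-211H alone the 95% interval was -0.38 to 0.62 (n = 3 pairs), which includes a rise of that fold. With palbociclib it was at 12831, 13060 and 13759 CP20M in H28, 7238, 11198 and 9109 in MSTO-211H, 7633 and 8862 in H2052 and 4284, 5283 and 4457 in H2452. All these ranges overlap DMSO.

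Of the inhibitors, SMAD7 was at -0.25 ± 0.13 over the sensitive lines (adjusted p = 0.129) and fell in H28 by 0.65 ± 0.06 (SE, n = 3 pairs, adjusted p = 0.0266). In H28 it went from 1157, 1145 and 983 CP20M to 726, 739 and 613 without overlap, and under median-of-ratios scaling the fold change of -0.52 was under the fold of 1.5. It was at 321, 314 and 268 in H2452, 65, 118 and 109 in MSTO-211H and 97 and 75 in H2052, which overlap DMSO. SKIL was at -0.15 ± 0.11 (adjusted p = 0.261), and its sign turned under both other scalings. In H2452 its log2 fold change was -0.36 ± 0.06 (n = 3 pairs, adjusted p = 0.0247), under the fold of 1.5, with 899, 1222 and 929 CP20M beside 1117, 1686 and 1148 in DMSO. With palbociclib it was at 1589 and 1385 in H2052, 525, 626 and 704 in MSTO-211H and 1579, 2297 and 1149 in H28, above DMSO without overlap in the first and overlapping it in the others.

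TGFBI had a log2 fold change of 0.72 ± 0.30 (SE, n = 11 pairs, 95% interval 0.08 to 1.36, adjusted p = 0.0593). In H2452 it rose by 1.12 ± 0.22 (n = 3 pairs, adjusted p = 0.033), to 29250, 40239 and 40698 CP20M, and in H2052 by 1.06 ± 0.10 (n = 2 pairs, adjusted p = 0.0376), to 14713 and 13664. In both lines treated and DMSO libraries did not overlap. In H28 it was at 4082, 3203 and 3753, below every DMSO library, with a log2 fold change of -0.56 ± 0.17 that did not pass (adjusted p = 0.0857). In MSTO-211H it was at 2397, 1712 and 2801, and the pairs were at -0.38, 1.66 and 2.83 (1.37 ± 0.67, adjusted p = 0.207).

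The first MSTO-211H pair thus went the other way, from a DMSO library of 3119 CP20M. Without this pair, TGFBI over the sensitive lines was called (0.83, adjusted p = 0.0408). It was also called without H28 (1.20, adjusted p = 0.00631), without replicate 2 or 3 of H28 (0.88 and 0.86, adjusted p = 0.0232 and 0.0322), with median-of-ratios or upper-quartile scaling (0.92 and 0.89, adjusted p = 0.0241 and 0.03), and without the replicate block (adjusted p = 0.0497).

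By line, 3 of the 10 genes were called higher in H2052 (TGFBR1, TGFBR2 and TGFBI) against 4.67% of all genes, 2 in H2452 (INHBA and TGFBI) against 6.04%, 0 in H28 against 5.89% and 2 in MSTO-211H (TGFB2 and TGFBR2) against 5.9%. Called lower were 2 in H28 (TGFB3 and SMAD7) against 7.34% and 0 in H2052, H2452 and MSTO-211H against 13%, 10.8% and 7.94%. None of the 10 genes was called in more than 2 of the 4 single-line fits. The calls in H2052 rest on 2 pairs and 1 residual degree of freedom, and none of them held without the filter (adjusted p from 0.055 to 0.0684) or without the trend in the variance (0.05 to 0.0568).

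**Figure D2:**
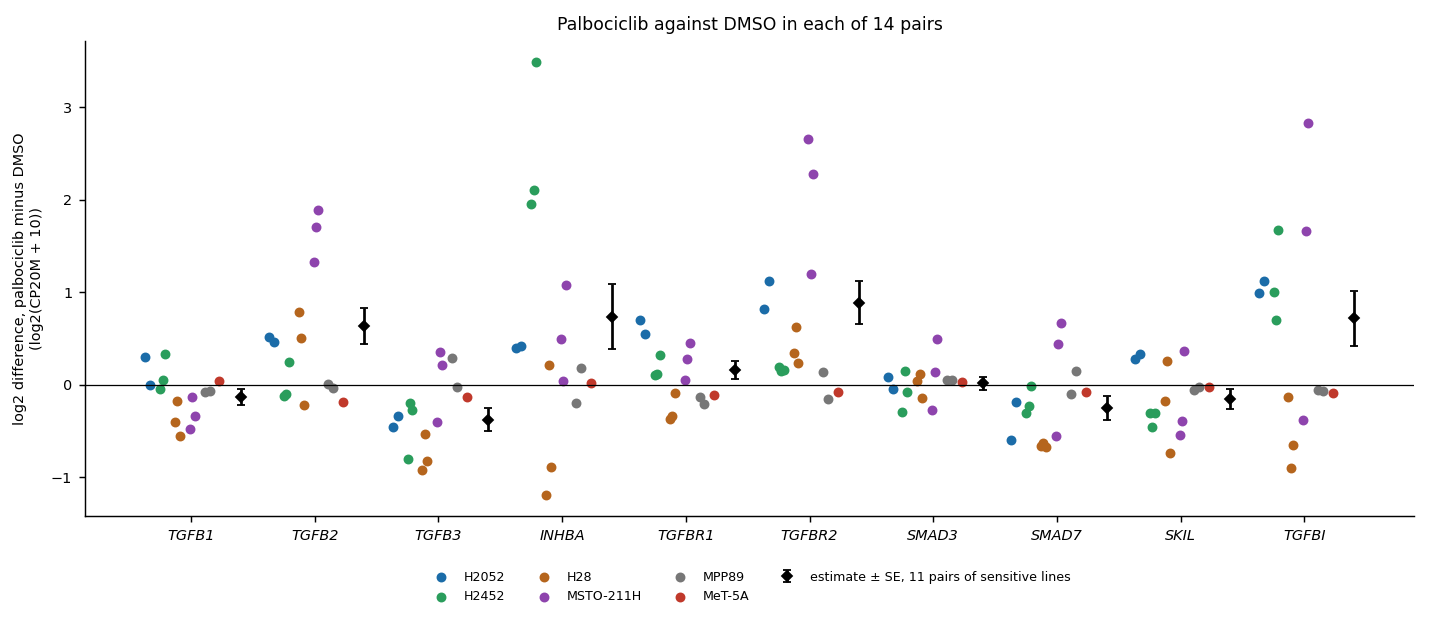
Difference between palbociclib and DMSO, in log2(CP20M + 10), in each of 14 pairs, coloured by line, with diamonds and bars for the estimate ± SE over the 11 pairs of sensitive lines. The pairs of TGFBR2 lie above 0 in all 4 sensitive lines, whereas INHBA reaches 3.48 in H2452 and lies below 0 in 2 of 3 pairs of H28.

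Whether the sensitive lines answered differently was tested across their 11 pairs (limma F test). The response differed among the lines for 5 of 10 genes, TGFB1, TGFB2, INHBA, TGFBR1 and TGFBR2, against 37.1% of all genes tested. INHBA had the lowest adjusted p (0.00268), followed by TGFBR2 (0.00279), TGFB2 (0.00487), TGFBR1 (0.00603) and TGFB1 (0.0318). TGFBI (0.0717), TGFB3 (0.107), SMAD7 (0.116), SKIL (0.261) and SMAD3 (0.813) did not pass.

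For TGFB1 the mean pair differences were -0.38 ± 0.19 in H28 (SD, n = 3), -0.31 ± 0.17 in MSTO-211H, 0.11 ± 0.20 in H2452 and 0.15 ± 0.21 in H2052 (n = 2). For TGFBR1 they were 0.63 ± 0.11 in H2052 and -0.26 ± 0.15 in H28. H28 was the only sensitive line in which TGFB1, TGFBR1 and TGFBI were each lower in 3 of 3 pairs.

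The call of TGFBR2 held under 23 of 23 alternatives (highest adjusted p 0.0216), and each of the other 4 calls was lost under at least 1 of them. TGFB2 did not differ among the lines left without MSTO-211H (adjusted p = 0.363), INHBA without H2452 (0.0913) or TGFBR1 without H28 (0.111). TGFB1 lost its call without H2052, H2452 or H28 (0.0504, 0.0858 and 0.0888), without a filter (0.0732) or trend (0.0597), and without replicate 1 of H2052 (0.0735), replicate 2 or 3 of H2452 (0.052 and 0.0617), replicate 1 or 3 of H28 (0.0743 and 0.0642) or replicate 3 of MSTO-211H (0.0566). Without replicate 1 of MSTO-211H, TGFBI (0.00153), SMAD7 (0.00437) and TGFB3 (0.0352) also differed, which made 8 of 10 genes. TGFBI also differed without the line MSTO-211H (0.00417), without its replicate 3 (0.0435) and with upper-quartile scaling (0.0434), with which TGFB3 was at 0.0498. Without the replicate block, TGFB1, TGFB2 and TGFBR1 did not pass (0.188, 0.124 and 0.0971).

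In the resistant lines none of the 10 genes was called in 3 pairs, and 0% of all genes tested. At an unadjusted p under 0.05 limma gave 1258 genes, with TGFBR1 and TGFBI among them (log2 fold changes of -0.15 ± 0.03 and -0.07 ± 0.03, both with an adjusted p of 0.689). The log2 fold changes of the 10 genes ran from -0.15 to 0.04. TGFBR2 was at 689 and 798 CP20M in MPP89 and 315 in MeT-5A with palbociclib, beside 627 and 887 and 332 in DMSO, with a fold change of -0.03 ± 0.07 (95% interval -0.20 to 0.14). TGFB2 was at 5993 and 3683 in MPP89 and 5030 in MeT-5A, with -0.07 ± 0.04 (95% interval -0.18 to 0.04). MKI67 in these lines was at 9100 to 12821 CP20M with palbociclib and 8453 to 11573 in DMSO.

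The difference of response between the sensitive and resistant lines was not past the threshold for any of the 10 genes, against 9.37% of all genes, and no member was under 0.05 unadjusted. TGFBR2 differed by 0.92 ± 0.46 (95% interval -0.05 to 1.89, adjusted p = 0.211), TGFB2 by 0.71 ± 0.39 (-0.12 to 1.53, adjusted p = 0.261), INHBA by 0.73 ± 0.71 (-0.77 to 2.24) and TGFBI by 0.79 ± 0.59 (-0.47 to 2.05, adjusted p = 0.417). A larger response of these genes in sensitive lines is therefore not shown by this test. The fit gave both classes a common variance for each gene, although the spread was smaller in the resistant lines. In the separate fits the SE of TGFBR2 was 0.23 in the sensitive and 0.07 in the resistant lines. For TGFB2 it was 0.20 and 0.04.

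After 48 h of washout, none of the 10 genes was called against palbociclib or against DMSO. Against palbociclib, 0 of 10 were called higher and 0 lower, beside 1.4% and 0% of all genes, and against DMSO 0 of 10 were called in either direction, beside 2.81% higher and 2.95% lower. Each line had 1 washout library, and the 4 lines were the units. MKI67 was at 3093 to 8328 CP20M after washout.

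TGFBR2 after washout was at 6320 CP20M in MSTO-211H, 3157 in H2052, 2326 in H28 and 4398 in H2452. In the same experiments and order of lines, DMSO was at 1377, 1742, 2112 and 3761 and palbociclib at 6708, 3807, 2496 and 4206. It was above DMSO in 4 of 4 lines, with a log2 difference of 0.85 ± 0.32 (SE, n = 4 lines, 95% interval 0.13 to 1.57, adjusted p = 0.112). Against palbociclib the difference was -0.10 ± 0.32 (95% interval -0.82 to 0.62, adjusted p = 0.948).

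TGFBI was lower after washout than with palbociclib in 4 of 4 lines. It was at 11636, 28951, 3232 and 2493 CP20M in H2052, H2452, H28 and MSTO-211H, after 13664, 40698, 3753 and 2801, with a log2 difference of -0.28 ± 0.47 (adjusted p = 0.881). Against DMSO the difference was 0.97 ± 0.47 (adjusted p = 0.206), higher in 3 of 4 lines, and without H28 it was called (1.58, adjusted p = 0.0462). In the same order of lines, INHBA was at 673, 335, 20 and 2741 after washout, or 0.97 ± 0.56 against DMSO (adjusted p = 0.279). TGFB2 was at 1671, 1104, 3 and 143, with 0.58 ± 0.38 (adjusted p = 0.335).

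At an unadjusted p under 0.05 there were 2 members against palbociclib, TGFB3 and TGFBR1, and 1 against DMSO, TGFBR2. In H2052, H2452, H28 and MSTO-211H, TGFB3 was at 27, 36, 18 and 39 CP20M after washout and at 17, 19, 7 and 33 with palbociclib, higher in 4 of 4 lines (0.51 ± 0.17, adjusted p = 0.236 in limma). TGFBR1 was at 3502, 471, 1329 and 1111 after 5022, 538, 1408 and 1378, lower in 4 of 4 lines (-0.27 ± 0.11, adjusted p = 0.308 in limma). Its difference from DMSO was 0.03 ± 0.11 (95% interval -0.21 to 0.27). The other genes (TGFB1, SMAD3, SMAD7 and SKIL) had differences from palbociclib between -0.14 and 0.20.

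**Figure D3:**
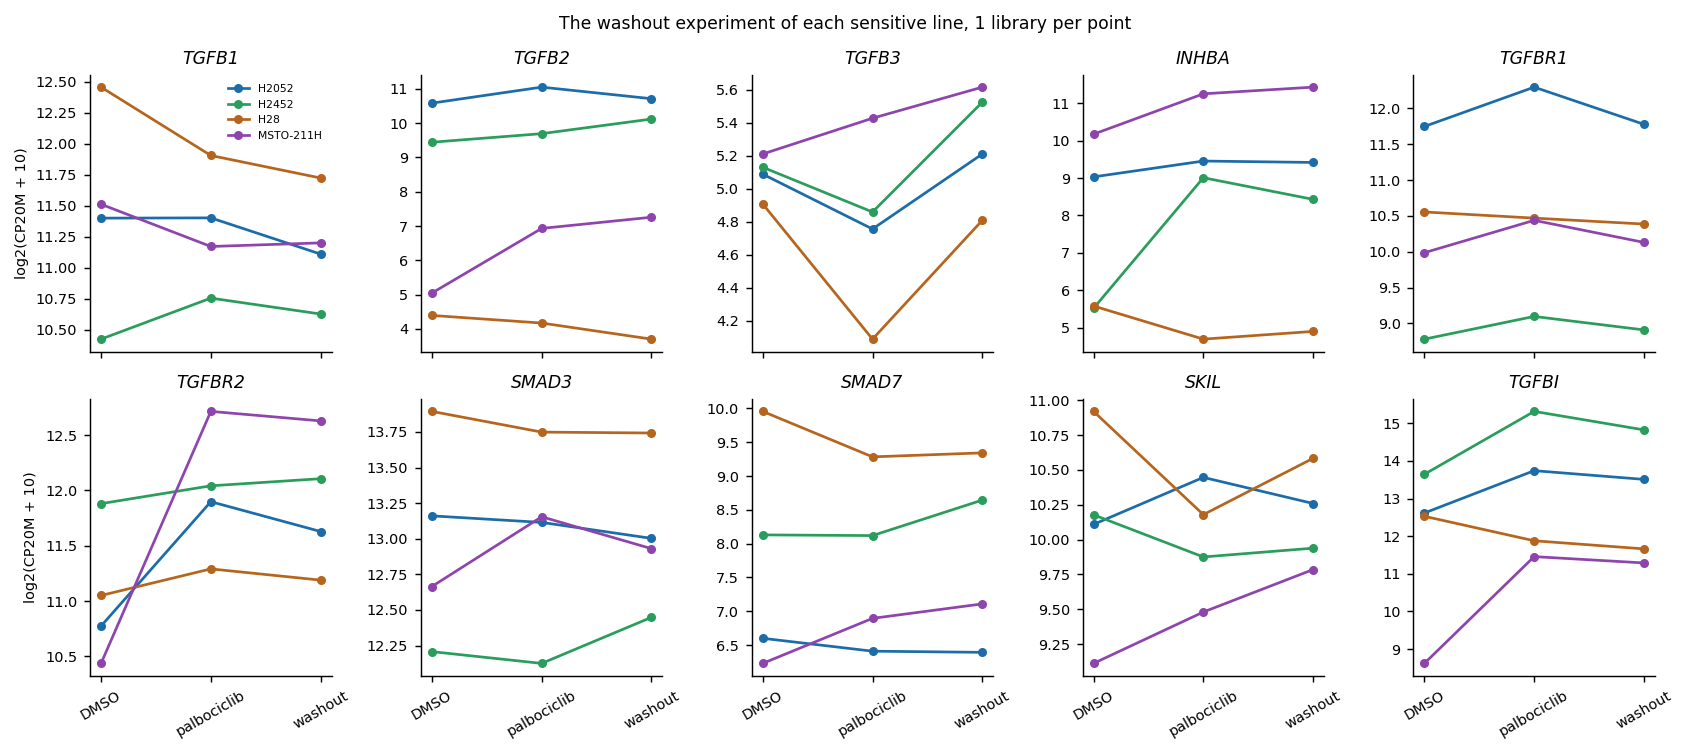
Level of the 10 genes as log2(CP20M + 10) in the DMSO, palbociclib and washout libraries of 1 experiment per sensitive line, with 1 library per point and 1 colour per line. TGFBR2 of MSTO-211H goes from 1377 to 6708 and stays at 6320 CP20M, and TGFBR1 goes down from palbociclib to washout in all 4 lines.

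The other genes of the pathway were taken from a list of 57 genes by role, of which 49 were tested. This list too was chosen with earlier results of these data known. Over the sensitive lines 8 of 49 were called higher, beside 5.58% of all genes, and 5 lower, beside 9.37%, with a median log2 fold change of 0.18, beside -0.11 for all genes. By line, higher and lower calls were 7 and 3 in MSTO-211H, 7 and 3 in H28, 5 and 6 in H2452 and 13 and 6 in H2052, beside the shares of all genes given above for each line, and none was called in the resistant lines. NRROS, INHBE, NODAL, MSTN, ACVR1C, ACVRL1, LEFTY1 and LEFTY2 were under the filter. The list was described by its counts and not tested as a set.

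Among the 10 genes for latency and activation, 3 rose and none fell. THBS1, thrombospondin, which releases active TGF-beta, rose by 1.19 ± 0.22 (SE, n = 11 pairs, adjusted p = 0.000767, 10 of 11 pairs). LTBP1, which anchors the latent ligand to the matrix, rose by 1.10 ± 0.35 (adjusted p = 0.0183, 10 of 11 pairs), mostly in MSTO-211H, where its mean pair difference was 3.05 beside 0.87 in H2052, 0.28 in H2452 and 0.12 in H28. Without MSTO-211H it was 0.37 and not called (adjusted p = 0.083). With line means as units the LTBP1 call was also lost (1.08, adjusted p = 0.158). LRRC32, which holds latent TGF-beta at the cell surface, rose by 0.94 ± 0.21 (adjusted p = 0.00226, 9 of 11 pairs), from a mean of 35.0 to 111.6 CP20M. Its mean pair difference was -0.01 in H28, and with line means as units the call was lost (adjusted p = 0.0567).

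None of the 3 related ligands passed. INHBB, the subunit of activin B, differed among the lines (adjusted p = 0.000701), with mean pair differences of 2.75 in H2452, 0.72 in H2052, 0.55 in MSTO-211H and -1.09 in H28. INHBA and INHBB thus both had their largest rise in H2452 and a mean below 0 in H28. Of 6 receptors and co-receptors, ACVR2B, a type II receptor for activins, fell by 1.06 ± 0.20 (adjusted p = 0.000671) in 11 of 11 pairs. None of the 3 signal transducers was called, and SMAD4 was at -0.57 ± 0.09 (adjusted p = 0.000154), lower in 11 of 11 pairs but under the fold of 1.5.

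Of 12 other inhibitors 2 rose and 2 fell. BAMBI, a decoy receptor without a kinase domain, rose by 1.26 ± 0.14 (adjusted p = 1.8e-05) in 11 of 11 pairs, and TGIF2, a nuclear co-repressor of SMADs, fell by 1.19 ± 0.11 (adjusted p = 4.2e-06) in 11 of 11 pairs. SMAD6 fell by 0.86 ± 0.20 (adjusted p = 0.00331, lower in 10 of 11 pairs). Its call was lost without H2452 (-0.51, under the fold of 1.5) and with line means as units (adjusted p = 0.0686). DCN, decorin, which binds TGF-beta, rose by 0.96 ± 0.24 (adjusted p = 0.00455, 8 of 11 pairs), from a mean of 5.36 to 26.5 CP20M. Its call was lost with a pseudocount of 50 (0.39), without MSTO-211H (0.58) and with line means as units (adjusted p = 0.0908), and its mean pair difference in H2452 was 0.

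Of 15 targets 3 rose and 2 fell. TGM2, transglutaminase 2, rose by 1.69 ± 0.21 (SE, n = 11 pairs, adjusted p = 4.1e-05) in 11 of 11 pairs, and CTGF, a matricellular protein, by 1.27 ± 0.20 (adjusted p = 0.000193, 10 of 11 pairs). TAGLN, which encodes the actin-binding protein transgelin, rose by 0.70 ± 0.23 (adjusted p = 0.02, 9 of 11 pairs). It was not called without H2052 (0.48, adjusted p = 0.104), without MSTO-211H (0.50, adjusted p = 0.142), without replicate 1 of H2052 (0.57, adjusted p = 0.0462) or with line means as units (adjusted p = 0.114). COL1A1, a collagen chain, fell by 1.20 ± 0.44 (adjusted p = 0.0365, lower in 9 of 11 pairs), with mean pair differences of -2.68 in H28 and -0.02 in MSTO-211H. Without H28 it was at -0.65 (adjusted p = 0.278), and 14 of 24 alternatives lost its call, with adjusted p up to 0.278. ID1, which is known as a target of the related BMP ligands, fell by 0.70 ± 0.12 (adjusted p = 0.000312) in 11 of 11 pairs, though its fold was below 1.5 under both other scalings and without H2452 (-0.47), the line with the largest mean fall (-1.30).

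DCN and COL1A1 are also on the list of fibroblast markers (PDGFRA, LUM, DCN, COL1A1 and POSTN). In the sensitive lines the summed level of this list ran from 106 to 5521 CP20M in DMSO and 35 to 4769 with palbociclib. In the resistant lines it was higher, at 102010 and 87233 in MPP89 and 11581 in MeT-5A in DMSO. The part of other cells in these values was not tested.

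Against the resistant lines the response was larger for LRRC32 (1.45 ± 0.43, adjusted p = 0.0441), BAMBI (1.29 ± 0.28, adjusted p = 0.0125), CTGF (1.46 ± 0.40, adjusted p = 0.0331) and TGM2 (1.82 ± 0.43, adjusted p = 0.0169). It was lower for TGIF2 (-1.07 ± 0.22, adjusted p = 0.00861) and ID1 (-0.93 ± 0.23, adjusted p = 0.0229). These were 6 of the 49 genes, beside 9.37% of all genes called in this contrast. For LRRC32 the difference includes mean pair differences below 0 in the resistant lines, -0.47 in MPP89 and -0.57 in MeT-5A. After washout, 7 of the 49 genes were called above DMSO, beside 2.81% of all genes, and 3 below, beside 2.95%, and none was called against palbociclib. BHLHE40 and SMAD4 had not been called with palbociclib over the sensitive lines. THBS1 (1.43 ± 0.38), BAMBI (1.21 ± 0.18), TGM2 (1.14 ± 0.21), LRRC32 (1.01 ± 0.29) and CTGF (0.85 ± 0.17) were higher in 4 of 4 lines, with TAGLN and BHLHE40, and ACVR2B (-0.95 ± 0.26), TGIF2 (-0.89 ± 0.19) and SMAD4 (-0.59 ± 0.10) lower. BHLHE40 and SMAD4 were named here after their values were seen.

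**Figure D4:**
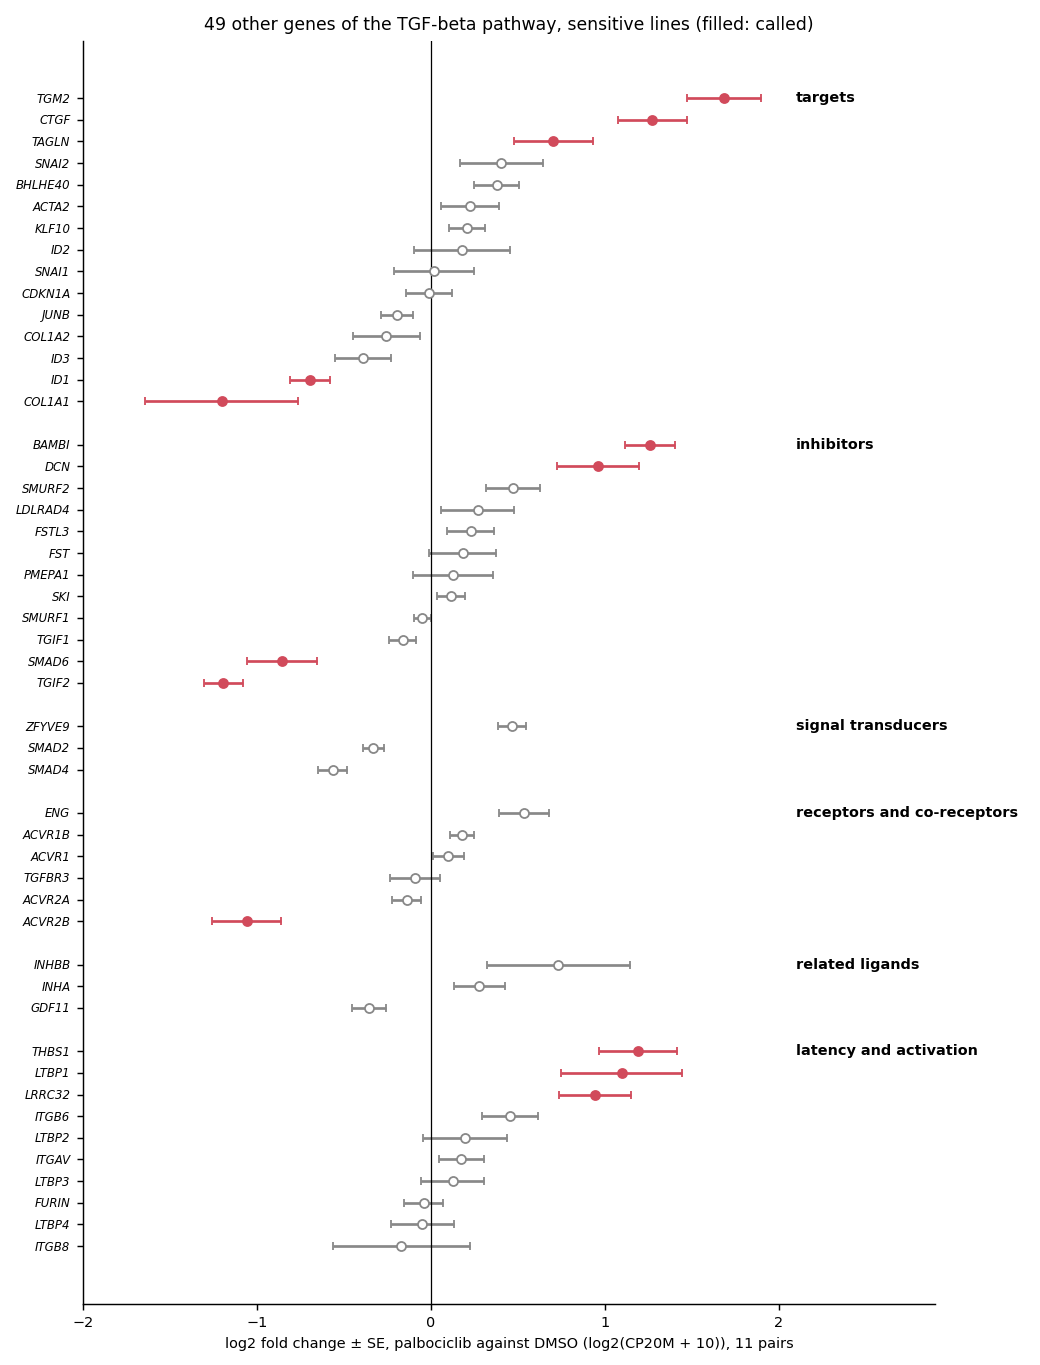
Log2 fold change ± SE of palbociclib against DMSO for the 49 other pathway genes over 11 pairs of sensitive lines, ordered by role, with filled points for called genes. TGM2 is the highest at 1.69 and COL1A1 the lowest at -1.20, and most genes in each role are open points.

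Over all 33 libraries, the genes most like each of the 10 in log2(CP20M + 10) were found by Pearson's r, which is given as a description since libraries of a line share its background. They were GOLGA2P10 (0.89) and UPF2 (0.88) for TGFB1, TGFB2-OT1 (0.99) and LYL1 (0.96) for TGFB2, VCPKMT and AC022098.1 (both 0.90) for TGFB3, and ZNF329 and ZNF471 (both 0.94) for INHBA. For the receptors they were TCF7L1 (0.94) and F8 (0.93) for TGFBR1, and ATP6V0E1 (0.93) and RAB5C (0.88) for TGFBR2. They were GALNT14 (0.93) and AC134669.1 (0.91) for SMAD3, MTF2 (0.95) and RUSC1 (0.94) for SMAD7, SDC2 (0.93) and VN1R81P (0.92) for SKIL, and MELTF (0.92) and FBN1 (0.91) for TGFBI. The r of TGFB2 with TGFB2-OT1 includes the bases they share. No member was among the 2 most like genes of another.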

How the data were processed

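RNA-seq libraries of 6 cell lines were made by the authors with a directional kit and sequenced paired-end. Reads were trimmed with Trimmomatic 0.36, mapped to GRCh38 with STAR 2.5.3 and counted per gene with HTSeq 0.9.1 (submitters' notes). The strand setting of the counting is not given in the sources used here, and TGFB1, TGFB2, TGFB3, INHBA and SMAD3 share exonic bases with genes on the opposite strand. The values deposited by the authors are a score, counts per 20000000 reads rounded up to whole numbers (column sums 20007662 to 20021400), so that the authors' count model (DESeq2) was not run here.

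Genes that reached 100 CP20M in any library were kept. log2(CP20M + 10) was fitted with limma 3.58.1 (lmFit, eBayes with trend) in R 4.3.3, with the experiment as a block, or the line for washout and no block for DMSO levels. Benjamini-Hochberg adjustment was over all 17803 genes tested. Calls needed a fold over 1.5 and an adjusted p under 0.05 (adjusted p alone for F tests and the difference between classes). Fold changes understate the change of low genes. The class and line differences were fitted on the libraries, with the treatment effect per class or line, in place of pair differences. The study's methods pair treated and control samples within each experiment. As a check, same-numbered DMSO and palbociclib libraries correlated in their deviations from the group means (r 0.18 to 0.78 over 13 pairs). In MSTO-211H the r was 0.18, 0.46 and 0.22. Both pairs of H2052 (0.34) and both pairs of MPP89 (0.78) have the same r by construction.

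Replicate libraries had equal values at no more than 4.33% of genes. The 95% intervals are from limma and cover the spread between experiments, or between lines for washout. The floor of 3 reads covers counting error only. Positions and exon lengths are from GENCODE 44, where 57532 of the 58302 gene IDs were found, and promoters from RefSeq. All 10 members, up to 4 called pathway genes per role with the largest change, the 5 with the lowest p among lines and the 2 most like genes per member were named. Alternatives were other pseudocounts, filters and scalings, no trend, no block, line means and leaving out lines or pairs. A gene of the pathway list is not reported here. Members and lists were chosen with earlier results of these data known. The fits were run on simulated data with independent errors and no experiment effects. For the fit over the sensitive lines the added change was the same in every line. That run therefore does not cover responses that differ among lines. Figures were drawn with matplotlib 3.10.9.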

Additional observations from a re-analysis of the deposited data

Results flagged for a closer look

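The response to palbociclib differed among the 4 sensitive lines (limma F test) for 18 of the genes named, 5 of which were named for a low p in this test. Over the whole pathway list it differed for 31 of 49 genes, beside 37.1% of all genes tested. The members were TGFB1 (adjusted p = 0.0318), TGFB2 (0.00487), INHBA (0.00268), TGFBR1 (0.00603) and TGFBR2 (0.00279). Of the other pathway genes, those for latency and activation were LTBP1 (0.000302), LTBP4 (0.00209), LRRC32 (0.022), THBS1 (0.0388) and ITGAV (0.00339), and the ligand and receptor were INHBB (0.000701) and ACVR2B (0.00729). The inhibitors were SMAD6 (0.0295), BAMBI (0.0168) and DCN (0.00552), and the targets TAGLN (0.0186), ID1 (0.00172) and TGM2 (0.0305). LTBP4 had mean pair differences of 0.88 in H28 and -0.58, -0.10 and -0.57 in H2052, H2452 and MSTO-211H. ITGAV was at 0.42, 0.42 and 0.46 in H2052, H2452 and H28 and -0.52 in MSTO-211H.

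The response differed between the sensitive and resistant lines (limma) for LRRC32 (adjusted p = 0.0441), BAMBI (0.0125), TGIF2 (0.00861), CTGF (0.0331), ID1 (0.0229) and TGM2 (0.0169). Of all genes tested 1668 were called in this contrast, and 177 to 242 without 1 of the 3 resistant pairs.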

How the results depend on the processing

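Of 2211 recomputed values of 137 results, 56 changed sign, all of them under 0.20 in size and none past the threshold. Over the sensitive lines, 0 members were called with line means as units or without MSTO-211H, 4 without H28, and 1 to 3 when leaving out each pair. In H2052 the count of 3 became 1 with a pseudocount of 1, 0 without a filter or trend and 6 with either scaling, and 0 to 1 without a pair, where the lone pair was assumed to vary like the other lines. In H28 the count of 2 became 1 with either pseudocount, median-of-ratios scaling, no filter, no replicate block or a filter within the fit. In MSTO-211H it became 1 without a filter or a replicate block. Leaving out a pair gave 0 to 0 members in H2452, H28 and MSTO-211H, where 2 pairs were left, and 0 genes of the whole table in 8 of these 9 fits (1577 without H2452 replicate 2). Among lines the count of 5 became 2 without the replicate block, 3 without H2452 or H28, and 4 to 8 without a pair. Against DMSO, washout gave 1 member without H28.

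The block changed 7 of 116 calls. Without it TGFBI was called over the sensitive lines (0.72), and TGFBR1 in H2052 (adjusted p = 0.0692), TGFB3 in H28 (0.177), TGFB2 in MSTO-211H (0.0589) and, among lines, TGFB1 (0.188), TGFB2 (0.124) and TGFBR1 (0.0971) were lost. No other call changed.

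Sign changes with median-of-ratios and upper-quartile scaling were, over the sensitive lines, TGFB1 (0.066 and 0.042), SKIL (0.042 and 0.018) and LTBP4 (0.15 and 0.12). They were SMAD3 in H2452 (0.12 and 0.11), INHBA in resistant lines (-0.020 and -0.027) and, between classes, TGFB1 (0.12 and 0.11), SMAD3 (0.19 and 0.18) and SKIL (0.099 and 0.082). SMAD7 in H2452 changed with the first (0.011) and SKIL in washout against palbociclib with the second (-0.052). Leaving out a line changed, over the sensitive lines, SMAD3 without MSTO-211H (-0.022), INHBB without H2452 (-0.022) and LTBP4 without H2052 (0.071) or MSTO-211H (0.15). Against palbociclib, washout changed for TGFB2 without H2052 (0.095) or H28 (0.14) or with a pseudocount of 50 (0.050), INHBA without H2452 (0.12) and SMAD3 without H2052 (0.031) or MSTO-211H (0.068). Against DMSO it changed without MSTO-211H for TGFBR1 (-0.0034), SMAD3 (-0.023), SMAD7 (-0.10) and SKIL (-0.14), and without H2452 for SMAD3 (-0.015).

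Leaving out each pair gave, over the sensitive lines, SMAD3 -0.031 to 0.047 and LTBP4 -0.18 to 0.026. It gave SMAD3 -0.046 to 0.079 in H2052, and TGFB1 -0.0001 to 0.19, TGFB2 -0.11 to 0.075 and SMAD3 -0.19 to 0.031 in H2452. In H28 it gave SMAD3 -0.050 to 0.083 and SKIL -0.46 to 0.037, and in MSTO-211H TGFB3 -0.092 to 0.29, SMAD3 -0.067 to 0.32 and SMAD7 -0.054 to 0.56. In the resistant lines it gave TGFB3 -0.078 to 0.13, INHBA -0.086 to 0.10, TGFBR2 -0.11 to 0.030 and SMAD7 -0.091 to 0.033, and between classes SMAD3 -0.074 to 0.0045. The causes of these changes were not tested.

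Counts over all genes that moved by over 1.5 times were 1687 of 2663 with a pseudocount of 50 over the sensitive lines, 1185, 284 and 0 of 3143 in H2052 with a pseudocount of 1, no filter and no trend, 994 of 2464 in MSTO-211H without a filter and 1104 of 1668 between classes without a filter. Among lines they were 2612 of 6601 without the replicate block, 3820 without H2452 and 3590 without H28. Between classes the split of 278 higher and 1390 lower became 764 and 512 with median-of-ratios scaling. Washout against palbociclib (250 genes) gave 0 without the block or without H2052, H2452 or MSTO-211H, 104 without H28, 141 with median-of-ratios and 120 with upper-quartile scaling, and washout against DMSO (1026 genes) 0 without the block, 232 without H2052, 645 without H2452 and 245 without MSTO-211H. The level test gave 25895 genes without a filter beside 16789. Depth limits TGFB2 in H28 and MSTO-211H and TGFB3 in all lines, where few reads stand behind each value.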

Other observations

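The untreated MeT-5A library has no replicate and entered no comparison. It had 4455 CP20M of TGFB1, beside 6656 in DMSO and 6862 with palbociclib, and 8233 of TGFB2, beside 5708 and 5030. TGFBR2 was at 466, beside 332 and 315, INHBA at 2796, beside 2947 and 2994, and TGFBI at 4384, beside 3930 and 3693. The DMSO and palbociclib libraries of MeT-5A were closer to each other than the untreated one was to either for each of the 10 genes but TGFBR1 (2891 in DMSO, 2679 with palbociclib and 2954 untreated).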
